A study of Mus musculus with 11 samples.

Results

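The BCL2 family decides whether a cell's mitochondria release the factors that start apoptosis. Its survival proteins hold back the effectors BAX and BAK, which form pores in the outer mitochondrial membrane, and the BH3-only proteins relay stress by blocking the survival proteins or by engaging the effectors directly. Blood cells are known to lean on several survival members at once: MCL1 is needed by stem cells and neutrophils, BCL-XL by erythroid cells and platelets, and A1 is a short-lived survival protein of granulocytes.

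Transcripts of 10 family genes, chosen by mouse symbol and matched to the identifiers of the count table, are described here among the 51912 genes of that table. They are the survival genes Bcl2, Bcl2l1 (BCL-XL), Mcl1 and the A1 copies Bcl2a1a, Bcl2a1b and Bcl2a1d, the effector genes Bax and Bak1, and the BH3-only genes Bcl2l11 (BIM) and Bbc3 (PUMA). All 10 passed the filter on low counts, which left 15703 genes for testing.

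RNA-seq was performed on lineage-negative bone marrow cells of C57BL/6 mice with an ERT2-Cre at the Rosa26 locus, carrying a constitutive GFP vector and a second vector that is switched on by Cre recombinase, so that oncogenes could be introduced in a set order. CSF3R-only cells (n = 4) carried CSF3R T618I, an activating mutant of the G-CSF receptor, in the constitutive vector and an empty inducible vector. CSF3R-first cells (n = 3) carried CSF3R T618I in the constitutive vector and CEBPA V314VW, a C-terminal mutant of the myeloid transcription factor, in the inducible one, and CEBPA-first cells (n = 4) carried the reverse arrangement. All 11 samples, CSF3R-only included, thus held CSF3R T618I and were kept for 48 h with 4-hydroxytamoxifen, which activates the Cre, without added cytokines after the sort. The inserts were expressed from retroviral vectors rather than from the genes' own promoters.

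Total counts ranged from 47905747 to 72268346 per sample. Levels are given as CPM, read counts scaled to a common library size with TMM normalization. Changes are log2 fold changes ± SE from the quasi-likelihood test of edgeR, called at a p of 0.05 after Benjamini-Hochberg adjustment over all genes tested. These were bulk samples, in which fewer cells of a type and less RNA per cell cannot be told apart. Although sorted as lineage-negative, the cells held granulocyte transcripts after the culture. The granulocyte antigens Itgam and Ly6g, targets of common lineage sorts, were at 450 ± 37.7 and 45.8 ± 3.40 CPM (SD, n = 4) in CSF3R-only, 211 ± 61.5 and 17.3 ± 6.78 CPM (SD, n = 3) in CSF3R-first and 62.2 ± 12.5 and 3.65 ± 0.890 CPM (SD, n = 4) in CEBPA-first. Of 8 T and NK cell genes, Cd3e, Cd8a, Ncr1 and Trbc2 had 0 counts in every sample, and the list summed to 76.4 to 134 CPM in CSF3R-only, 44.2 to 73.4 CPM in CSF3R-first and 43.1 to 59 CPM in CEBPA-first, nearly all of it Nkg7 (109, 57.6 and 48.8 CPM). CSF3R-first replicate A stood apart from replicates B and C of its group, with chi-square values over genes, divided by the degrees of freedom, of 99.1 and 74.5 against 22.2 between B and C.

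Ordered by level per exon length, one survival gene was far above the rest of the family. Mcl1 was at 369 ± 46.3 CPM per kb in CSF3R-only cells, 242 ± 50.8 in CSF3R-first cells and 142 ± 15.0 in CEBPA-first cells (SD, n = 4, 3 and 4). Bax came next at 67.9, 65.9 and 59.6 CPM per kb, then Bcl2l1 at 17.1, 10.7 and 6.23. In CSF3R-only cells, Bcl2l11 (12.4 to 15.6 CPM per kb) and Bbc3 (12.5 to 13.7) followed with overlapping samples, and Bak1 stood below them at 6.25 ± 0.490. Bcl2 and the 3 A1 copies formed the bottom of the list in every group, between 0.519 and 1.83 CPM per kb. In CEBPA-first cells the middle of this order closed up: samples of Bbc3 (5.18 to 5.79 CPM per kb) overlapped with Bak1 (4.15 to 5.48), which in turn overlapped with Bcl2l11 (3.26 to 4.87). Levels per kb rest on the annotated exon bases of all isoforms of a gene together, and transcript isoforms, such as the long and short forms of Bcl2l1 or Mcl1, are not separated by gene counts.

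**Figure D1:**
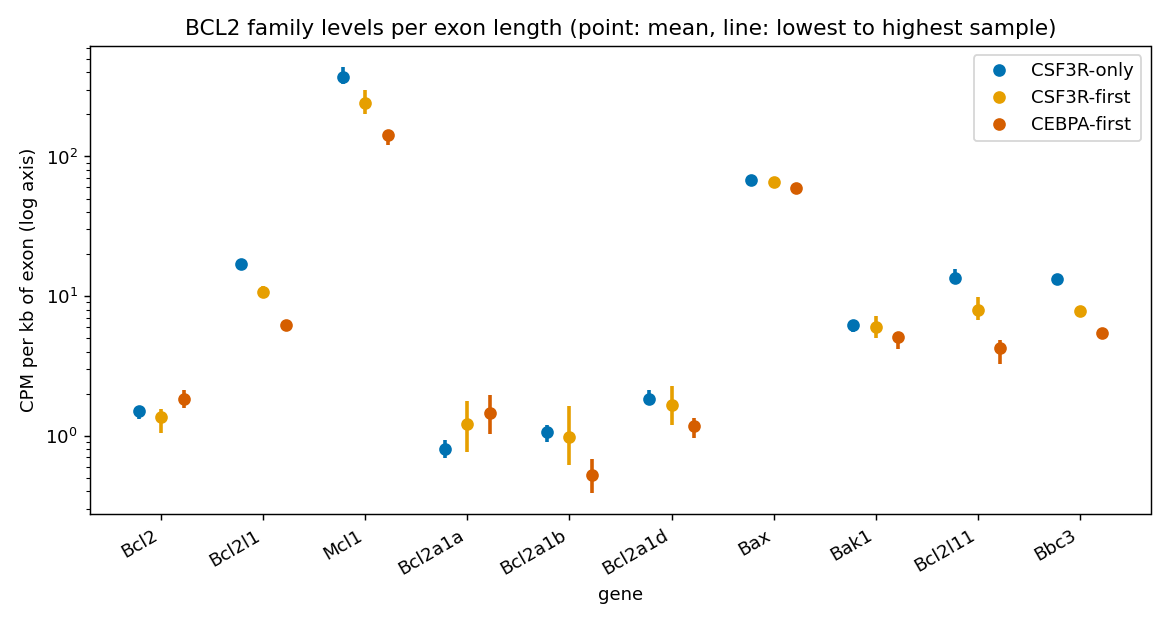
Mean level of each of the 10 genes in CPM per kb of annotated exon (log axis) for the 3 groups, with lines from the lowest to the highest sample. Mcl1 lies above Bax in every group, and Bcl2 and the A1 copies lie at the bottom.

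Of the 3 survival genes whose reads are not split between copies, Mcl1 made up 95.2% ± 0.406 of the summed per-kb level in CSF3R-only cells, 95.2% ± 0.607 in CSF3R-first cells and 94.6% ± 0.554 in CEBPA-first cells (SD, n = 4, 3 and 4). Bcl2l1 made up 4.44%, 4.25% and 4.17%. Bcl2 had the smallest share, at 0.396% ± 0.0750, 0.560% ± 0.197 and 1.23% ± 0.295.

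To learn what the family looked like when mutant CEBPA came first, CEBPA-first was compared with CSF3R-only. The abundant survival genes and both BH3-only genes were lower in CEBPA-first: Bcl2l11 fell by 1.66 ± 0.14, Bcl2l1 fell by 1.46 ± 0.07, Mcl1 fell by 1.38 ± 0.13 and Bbc3 fell by 1.29 ± 0.07 on the log2 scale, with no overlap between the groups. The effectors moved little, Bax by -0.19 and Bak1 by -0.28, and Bcl2 did not fall. Of the 10 genes, 7 fell and 1 rose. Over all genes tested, 72% were called in this comparison (36.6% lower and 35.4% higher), so a call by itself sets these genes apart very little, and the median log2 fold change was -0.84 for the 10 genes and 0 for all genes. With the additional requirement of a log2 fold change past 1, 5 genes were called and all 5 were lower, against 27% of all genes tested (19% lower and 8.07% higher). The 5 were Bcl2l11, Bcl2l1, Mcl1, Bbc3 and the A1 copy Bcl2a1b. Samples of the groups did not overlap for 8 of the 10 genes, 7 of them lower and 1 higher in CEBPA-first, against 68.7% of all genes tested (34.5% lower and 34.2% higher). These counts and the median take the nearly identical A1 copies as separate genes. With the copies added up before the fit, 5 of 8 genes were called, all lower, and the sum was not among them.

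**Figure D2:**
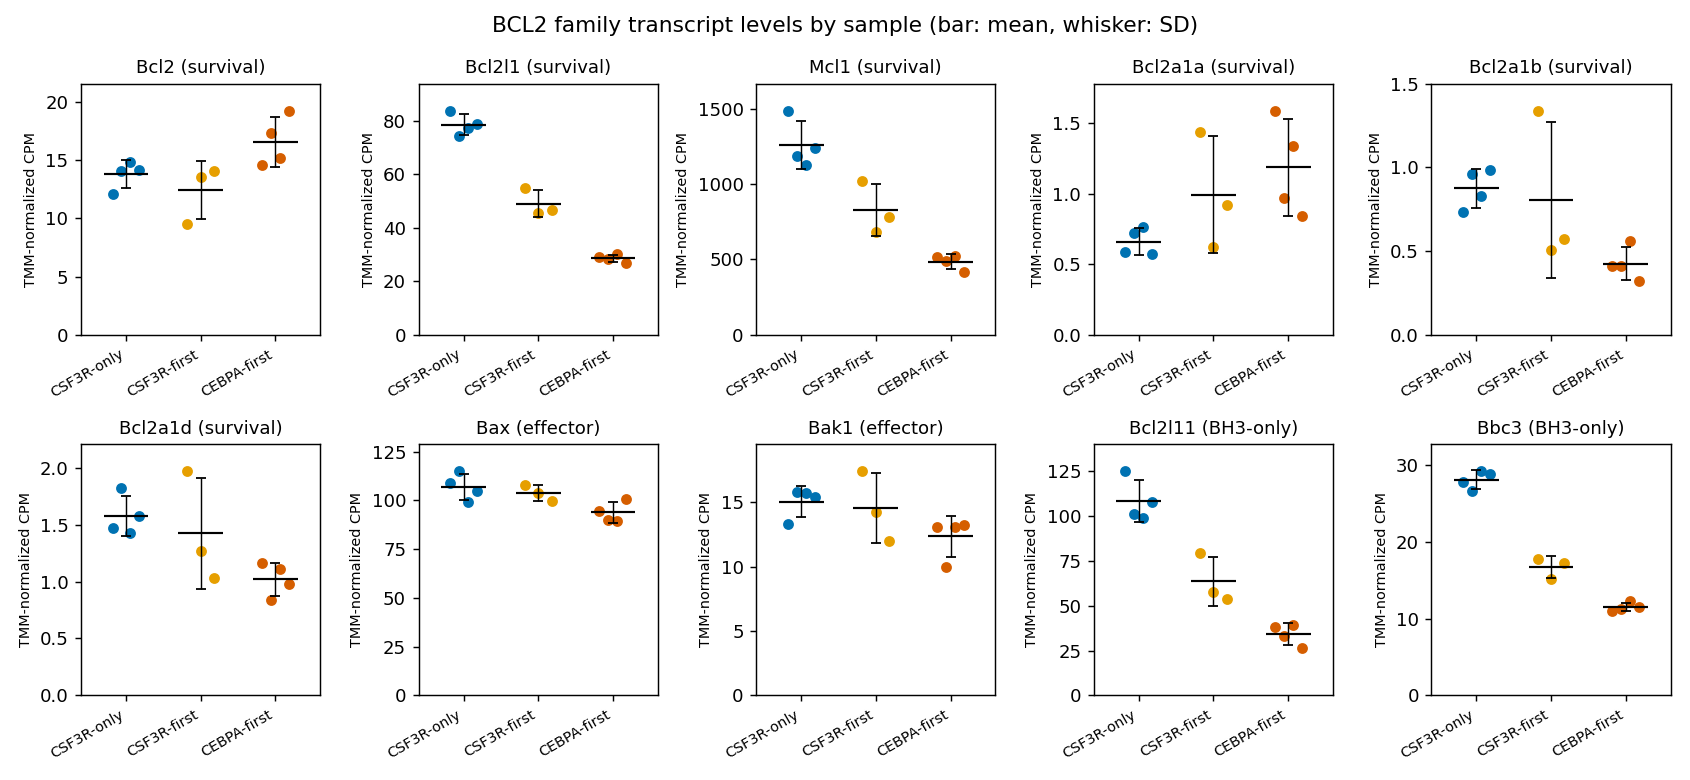
TMM-normalized CPM of the 10 genes in each of the 11 samples (points), with the mean (bar) and SD (whisker) per group on axes that start at 0. Bcl2l1, Mcl1, Bcl2l11 and Bbc3 step down over the 3 groups, from left to right, without overlap, while samples of Bax overlap between all groups.

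Mcl1 encodes a survival protein with a rapid turnover and lies on chromosome 3 of GRCm38 (95658788 to 95663176, plus strand). It was at 1490, 1190, 1130 and 1240 CPM in CSF3R-only replicates A to D. CSF3R-first replicates A to C were at 1020, 683 and 780 CPM, and CEBPA-first replicates A to D at 518, 487, 525 and 413 CPM. Every CSF3R-only sample was above every CSF3R-first sample, and every CSF3R-first sample was above every CEBPA-first sample. CEBPA-first differed from CSF3R-only by -1.38 ± 0.13 on the log2 scale (edgeR adjusted p = 7.45e-07).

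Bcl2l1 (chromosome 2, 152780668 to 152831728, minus strand) encodes BCL-XL. Its levels were 83.8, 74.3, 77.2 and 78.7 CPM in CSF3R-only, 54.8, 45.3 and 46.7 CPM in CSF3R-first and 28.9, 28.2, 30.2 and 26.9 CPM in CEBPA-first. The groups again formed 3 separate steps, and the spread within each was small (SD 3.99, 5.12 and 1.39 CPM). The difference of -1.46 ± 0.07 between CEBPA-first and CSF3R-only had an edgeR adjusted p of 3.08e-09.

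Mcl1 and Bcl2l1 kept the same proportion to each other while both were lower. The log2 ratio of Bcl2l1 to Mcl1 (CPM, prior count 2) was -4.00 ± 0.11 in CSF3R-only cells, -4.06 ± 0.15 in CSF3R-first cells and -4.08 ± 0.097 in CEBPA-first cells (SD, n = 4, 3 and 4), and samples of all 3 groups overlapped. These ratios are descriptions and were not tested.

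Bcl2 (chromosome 1, 106538178 to 106714274, minus strand), the founding survival gene and the target of venetoclax, behaved differently from both. It was at 12.1, 14.1, 14.9 and 14.2 CPM in CSF3R-only, 9.56, 13.6 and 14.1 CPM in CSF3R-first and 14.6, 17.4, 15.2 and 19.3 CPM in CEBPA-first. Of the CSF3R-only samples, only replicate C (14.9 CPM) reached into the CEBPA-first range, and the CEBPA-first samples lay above all 3 CSF3R-first samples. The log2 fold change against CSF3R-only was 0.27 ± 0.13 and was not called (edgeR adjusted p = 0.0765, 95% interval -0.01 to 0.54). It was called under several alternatives: with total-count scaling (0.40, edgeR adjusted p = 0.0281), without the filter on low counts (0.34, 0.0209), in a fit of the compared groups alone (0.27, 0.03), and without CEBPA-first replicate A (0.33, 0.0497) or CSF3R-first replicate A (0.27, 0.0208). The log2 ratio of Bcl2 to Mcl1 was -6.51 ± 0.30 in CSF3R-only and -4.87 ± 0.34 in CEBPA-first, and the lowest CEBPA-first sample (-5.15) was above the highest CSF3R-only sample (-6.24). In CSF3R-first, this ratio was -6.73 in replicate A and -5.65 and -5.78 in replicates B and C. The ratio of Bcl2 to Bax moved less, from -2.95 ± 0.19 to -2.50 ± 0.15, and in CSF3R-first it was -3.08 ± 0.36.

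**Figure D3:**
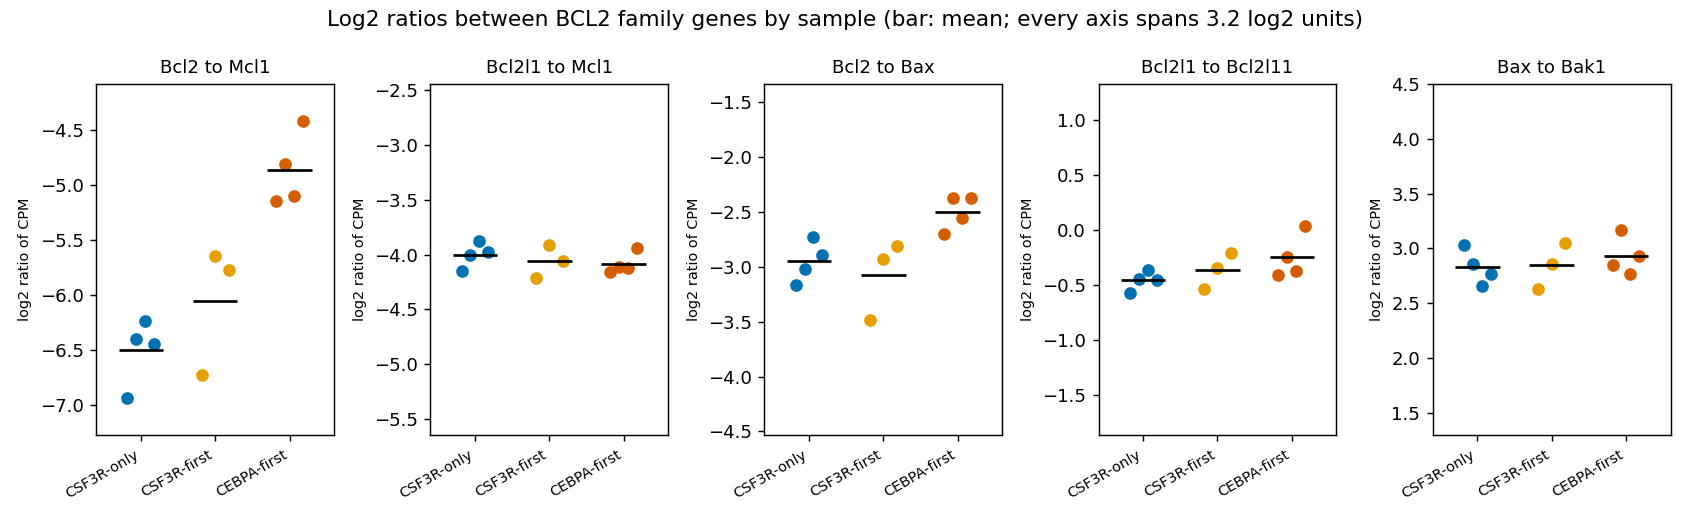
Log2 ratios of CPM between 5 pairs of genes in each of the 11 samples, with the group mean as a bar; the axes have different centres but the same span. Bcl2 to Mcl1 is highest in CEBPA-first (-4.87 on average), whereas Bcl2l1 to Mcl1 stays near -4 in every group.

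The A1 copies Bcl2a1a, Bcl2a1b and Bcl2a1d lie within chromosome 9 and are nearly identical, so their counts have to be read together. The coding sequence of Bcl2a1a matched that of Bcl2a1b over 97.9% and that of Bcl2a1d over 98.6% of 516 bases, and 12 positions differed among the copies, 7 of them in the first 100 bases. Those bases are shown from the start codon on, 5′ to 3′, with the differing positions in capitals, because they hold 7 of the 12 differing coding positions. They are at chr9:88957051-88957150 (plus strand), chr9:89199360-89199459 (plus strand) and chr9:88731620-88731719 (minus strand) of GRCm38.
Bcl2a1a: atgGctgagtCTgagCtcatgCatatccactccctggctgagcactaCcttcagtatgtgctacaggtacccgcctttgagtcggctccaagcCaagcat
Bcl2a1b: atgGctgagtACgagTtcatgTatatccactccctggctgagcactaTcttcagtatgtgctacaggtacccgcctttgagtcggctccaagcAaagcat
Bcl2a1d: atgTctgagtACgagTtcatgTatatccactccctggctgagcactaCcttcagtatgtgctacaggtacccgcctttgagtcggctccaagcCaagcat
Counting from 1 at the A of the start codon, Bcl2a1b differs from Bcl2a1a at C48T and C94A, where Bcl2a1d does not, and Bcl2a1d differs at G4T.

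Only 56.5% of the 100-base stretches of the Bcl2a1a transcript occurred in no transcript of another gene, and 43.2% and 45.3% of those of Bcl2a1b and Bcl2a1d. That length was chosen to stand for a read. In addition, 49.1% of the exon bases of Bcl2a1b overlap with Gm29094 on the same strand, which was listed at 0 in all samples. How the authors' counting treated reads that fit several copies is not given in the sources used here, so the levels below may leave out shared reads.

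Taken singly, the copies did not move together. Bcl2a1a was at 27 to 38 counts per sample in CSF3R-only and 57 to 93 in CEBPA-first and rose (log2 fold change 0.84 ± 0.28, edgeR adjusted p = 0.016). Bcl2a1b fell from 0.876 ± 0.117 to 0.424 ± 0.0983 CPM (SD, n = 4 and 4), a log2 fold change of -1.06 ± 0.31, and Bcl2a1d from 1.58 ± 0.176 to 1.02 ± 0.147 CPM, a log2 fold change of -0.62 ± 0.21. The call of Bcl2a1a was lost without CEBPA-first replicate A (0.67, edgeR adjusted p = 0.0587) and that of Bcl2a1d without CEBPA-first replicate B (-0.54, 0.0519).

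When the 3 copies were added up before the fit, no change was called in any comparison. The sum was at 2.79, 3.50, 3.02 and 3.14 CPM in CSF3R-only, 4.75, 2.39 and 2.51 CPM in CSF3R-first and 3.17, 2.22, 3.01 and 2.15 CPM in CEBPA-first. Samples of all groups overlapped, and the highest value was that of CSF3R-first replicate A. For the sum, CEBPA-first differed from CSF3R-only by -0.24 ± 0.22 on the log2 scale (edgeR adjusted p = 0.328, 95% interval -0.71 to 0.23). The remaining copy, Bcl2a1c, had at most 2 counts in a sample.

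Of the effectors, Bax (chromosome 7, 45461697 to 45466898, minus strand) was nearly level. It was at 109, 115, 99.1 and 105 CPM in CSF3R-only, 108, 104 and 99.7 CPM in CSF3R-first and 94.8, 90.2, 89.7 and 101 CPM in CEBPA-first. The groups overlapped, through CSF3R-only replicate C and CEBPA-first replicate D. The log2 fold change of -0.19 ± 0.06 was called (edgeR adjusted p = 0.0141), but it came to -0.05 (adjusted p = 0.464) when libraries were scaled by total counts alone and to -0.11 (adjusted p = 0.26) without the filter on low counts. That scaling raised the median log2 fold change of all genes by 0.13.

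Bak1 (chromosome 17, 27019810 to 27029009, minus strand), which forms the same kind of pore, was at 13.3, 15.8, 15.7 and 15.4 CPM in CSF3R-only, 17.4, 14.2 and 12.0 CPM in CSF3R-first and 13.1, 9.99, 13.1 and 13.2 CPM in CEBPA-first. Its samples did not overlap between CEBPA-first and CSF3R-only, but the gap was only between 13.2 and 13.3 CPM. The log2 fold change was -0.28 ± 0.12 (edgeR adjusted p = 0.0526). It was called with a minimum of 10 counts in every sample (-0.32, edgeR adjusted p = 0.0316), in a fit of the compared groups alone (-0.28, 0.0214), and without CSF3R-only replicate A (-0.34, 0.0329), CSF3R-first replicate A (-0.28, 0.0249) or CSF3R-first replicate C (-0.27, 0.0387). Of its exon bases, 25.5% overlap with Ggnbp1 on the opposite strand, which held 29 to 57 counts per sample against 586 to 1036 for Bak1. The log2 ratio of Bax to Bak1 was 2.83 ± 0.16 in CSF3R-only cells, 2.85 ± 0.21 in CSF3R-first cells and 2.93 ± 0.17 in CEBPA-first cells (SD).

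Both BH3-only genes were lower in every CEBPA-first sample than in any other sample. Bcl2l11 (chromosome 2, 128126038 to 128162547, plus strand) encodes BIM, the killer of cytokine-starved blood cells, and was at 125, 101, 99.2 and 108 CPM in CSF3R-only. In CSF3R-first it was at 79.3, 57.5 and 53.8 CPM, and in CEBPA-first at 38.3, 33.3, 39.1 and 26.2 CPM. Between CEBPA-first and CSF3R-only it differed by -1.66 ± 0.14 on the log2 scale, the largest fitted change of the 10 genes in this comparison (edgeR adjusted p = 4.13e-07).

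Bbc3 (chromosome 7, 16308393 to 16318205, plus strand) encodes PUMA, a target of p53. It was at 27.8, 26.6, 29.2 and 28.9 CPM in CSF3R-only, 17.8, 15.1 and 17.3 CPM in CSF3R-first and 11, 11.2, 12.3 and 11.5 CPM in CEBPA-first. These were again 3 steps without overlap, and the log2 fold change was -1.29 ± 0.07 (edgeR adjusted p = 9.95e-09). The log2 ratio of Bcl2l1 to Bcl2l11 was -0.46 ± 0.088 in CSF3R-only cells, -0.36 ± 0.16 in CSF3R-first cells and -0.25 ± 0.20 in CEBPA-first cells, with overlapping samples.

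The upstream regions of these BH3-only genes hold one of the 4 sequence motifs searched, and are shown because they do so. FOXO factors are textbook activators of both genes. The FOXO motif TGTTTAC, searched on both strands, matched 1 of the 2 promoter windows of Bcl2l11, at bases -227 to -221 from the transcription start, and 1 of the 3 windows of Bbc3, at bases -167 to -161 from an internal start. The 250 bases before each start are given 5′ to 3′ on the plus strand with the match in capitals (RefSeq promoter table, GRCm38.p6, chr2:128125788-128126037 and chr7:16310011-16310260).
Bcl2l11: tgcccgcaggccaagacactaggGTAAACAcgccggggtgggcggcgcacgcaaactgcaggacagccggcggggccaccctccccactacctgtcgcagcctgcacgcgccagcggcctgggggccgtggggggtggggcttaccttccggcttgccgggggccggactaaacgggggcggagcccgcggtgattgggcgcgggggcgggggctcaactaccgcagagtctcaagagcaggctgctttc
Bbc3: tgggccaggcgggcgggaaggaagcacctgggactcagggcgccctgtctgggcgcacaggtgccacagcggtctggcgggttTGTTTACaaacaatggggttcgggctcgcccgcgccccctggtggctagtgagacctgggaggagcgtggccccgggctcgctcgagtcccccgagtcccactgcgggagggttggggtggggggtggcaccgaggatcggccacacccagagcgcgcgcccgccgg
Of 32851 promoter windows of the same length (300 bases, from 250 before to 50 after a start), 3.65% held the FOXO motif, and no window of the 8 other members did, those of Mcl1 and Bcl2l1 included. All 10 genes were matched, with 15 windows in all. No window held the C/EBP motif TTGCNNAA (10.8% of all windows) or the STAT motif TTCNNNGAA (8.3%), and 1 window, that of Bax, held a p53 half-site (8.36%). A match is a run of letters and not a measured binding site.

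The FOXO genes looked at here were Foxo1 and Foxo3. Foxo1 was at 17.5 ± 0.910 CPM in CSF3R-only (SD, n = 4), 12.5 ± 2.14 CPM in CSF3R-first (n = 3) and 7.80 ± 0.720 CPM in CEBPA-first (n = 4), and CEBPA-first differed from CSF3R-only by -1.17 ± 0.11 on the log2 scale (edgeR adjusted p = 5.7e-07). Foxo3 did not step down in this way: it was at 17.9 ± 1.72, 14.9 ± 0.557 and 15.3 ± 1.65 CPM, with a log2 fold change of -0.23 ± 0.09 against CSF3R-only (adjusted p = 0.0353) and 0.04 ± 0.10 against CSF3R-first (adjusted p = 0.773). Whether these transcripts bear on Bcl2l11 and Bbc3 was not tested.

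The order of the mutations was addressed by comparing CEBPA-first with CSF3R-first, cells that carry both oncogenes. The vector of each oncogene, constitutive or inducible, was swapped along with the order, so vector and order cannot be told apart here. Bcl2l11, Bcl2l1, Mcl1 and Bbc3 were again lower in CEBPA-first, and Bcl2 was higher. Log2 fold changes were -0.89 ± 0.15 for Bcl2l11 (edgeR adjusted p = 0.000516), -0.78 ± 0.08 for Bcl2l1 (6.94e-06), -0.77 ± 0.13 for Mcl1 (0.000672) and -0.54 ± 0.08 for Bbc3 (0.000155). In total 5 of the 10 genes fell and 1 rose, where 48.3% of all genes tested were called (24.3% lower and 24% higher), and the median log2 fold change was -0.50 for the 10 genes and 0 for all genes. No member passed a log2 fold change of 1 as well, in edgeR (also with an unadjusted p) or in DESeq2, where 12.8% of all genes tested did (10.3% lower and 2.57% higher). Samples did not overlap for 5 of the 10 genes, 4 lower and 1 higher in CEBPA-first, against 52.2% of all genes tested (24.8% lower and 27.4% higher).

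Bcl2 was 0.42 ± 0.14 higher on the log2 scale in CEBPA-first than in CSF3R-first (edgeR adjusted p = 0.0256), with 4 of 4 CEBPA-first samples above all CSF3R-first samples. The call was not firm. Without CSF3R-first replicate A, the lowest sample, the log2 fold change was 0.27 (adjusted p = 0.0953), and it was also lost without CEBPA-first replicate B (0.40, 0.0598) or D (0.34, 0.0726) and in a fit of the compared groups alone (0.39, 0.066). Bcl2a1b was the other gene called, at -0.92 ± 0.33 (edgeR adjusted p = 0.0366), and it too rested on CSF3R-first replicate A: without it the log2 fold change was -0.35 (adjusted p = 0.358). Leaving out CEBPA-first replicate A (-0.91, adjusted p = 0.07), B (-0.91, 0.074) or D (-0.80, 0.0892) also ended this call, as did a fit of the compared groups alone (-0.96, 0.0658).

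What was added by switching on mutant CEBPA after mutant CSF3R is shown by CSF3R-first against CSF3R-only. The same CSF3R-only samples serve as controls here and in the first comparison. Bcl2l11, Bbc3, Bcl2l1 and Mcl1 were lower in CSF3R-first, and these were the 4 genes called, against 42.7% of all genes tested (21.1% lower and 21.6% higher). Log2 fold changes were -0.77 ± 0.15 for Bcl2l11 (edgeR adjusted p = 0.00193), -0.75 ± 0.08 for Bbc3 (2.66e-05), -0.68 ± 0.08 for Bcl2l1 (4.56e-05) and -0.61 ± 0.14 for Mcl1 (0.00373). None of the 10 rose in edgeR, also at an unadjusted p below 0.05, or in DESeq2, and none passed a log2 fold change of 1 by these tests, a mark reached by 6.65% of all genes tested (4.53% lower and 2.13% higher). Samples did not overlap for these 4 genes, against 42.1% of all genes tested (21.4% lower and 20.7% higher). The median log2 fold change was -0.15 for the 10 genes and -0.02 for all genes. The 4 calls held with any 1 sample left out.

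**Figure D4:**
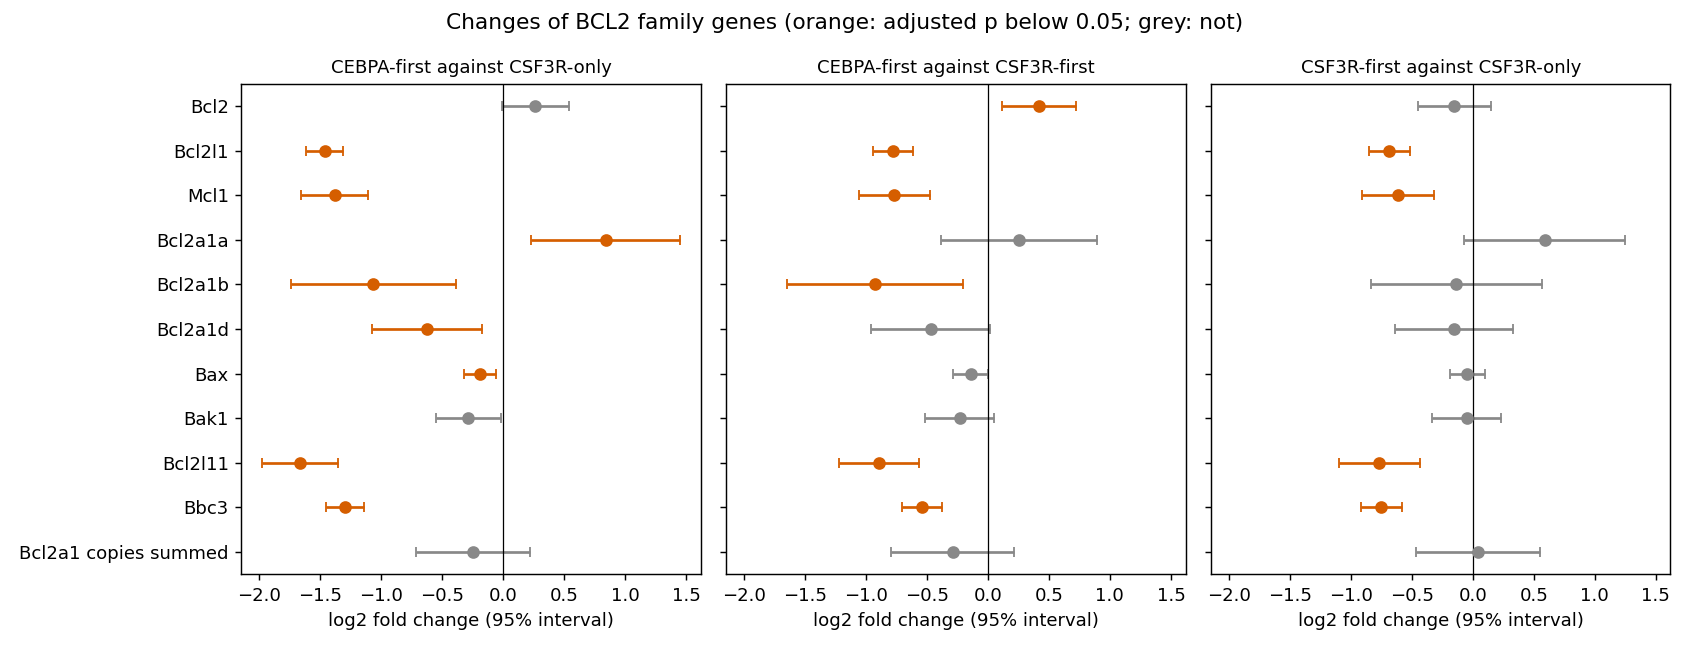
Log2 fold change with its 95% interval for each of the 10 genes and for the summed A1 copies in the 3 comparisons; orange points passed an adjusted p of 0.05. Bcl2l1, Mcl1, Bcl2l11 and Bbc3 are left of 0 in each panel, and the interval of the summed A1 copies spans 0 in each panel.

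These 4 genes thus had CSF3R-first between the other groups. On the log2 CPM scale, with 0 at the CSF3R-only mean and 1 at the CEBPA-first mean, CSF3R-first lay at 0.454 ± 0.211 for Mcl1, 0.468 ± 0.179 for Bcl2l11, 0.470 ± 0.101 for Bcl2l1 and 0.585 ± 0.0988 for Bbc3 (SD over the CSF3R-first samples, n = 3). For Mcl1 the single samples A, B and C lay at 0.223, 0.639 and 0.5, and for Bcl2l11 at 0.264, 0.541 and 0.598. Replicate A was nearest to CSF3R-only for each of the 4 genes. Over all genes tested, 13.4% had every sample in this order of 3 separate steps.

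Genes of several cell types fell with these transcripts, and their part in the results was not tested. Of 18 neutrophil maturation genes, 14 fell and 4 rose in CEBPA-first against CSF3R-only (all genes tested: 36.6% fell and 35.4% rose). Their summed level was 30600 to 36900 CPM in CSF3R-only, 31100, 19900 and 22300 CPM in CSF3R-first replicates A, B and C and 12900 to 14900 CPM in CEBPA-first, so that CSF3R-first replicate A was highest of its group here as it was for Mcl1, Bcl2l1, Bcl2l11 and Bbc3. The 4 that rose were the primary granule genes Elane, Mpo, Prtn3 and Ctsg, which immature granulocytes transcribe. Mmp8 and S100a9, the most abundant genes of the list in CSF3R-only, were at 7740 and 8390 CPM in CSF3R-only and 4820 and 1150 CPM in CEBPA-first.

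Counts of called genes here stand against all genes tested, of which 36.6% fell and 35.4% rose in CEBPA-first against CSF3R-only. The shares were 24.3% and 24% in CEBPA-first against CSF3R-first, and 21.1% and 21.6% in CSF3R-first against CSF3R-only. All 7 megakaryocyte genes fell in each of the comparisons. Their sum was 908 to 1230 CPM in CSF3R-only, 345 to 538 CPM in CSF3R-first and 112 to 156 CPM in CEBPA-first. Of 10 erythroid genes, 9 fell in CEBPA-first against CSF3R-only and 0 were called in CSF3R-first against CSF3R-only by edgeR (1 at an unadjusted p below 0.05) or DESeq2. Their sum was 292 to 438 CPM in CSF3R-only, 132, 250 and 436 CPM in CSF3R-first replicates A, B and C and 39.1 to 56.3 CPM in CEBPA-first. The 10 monocyte and macrophage genes summed to 2700 to 3430, 1460 to 2500 and 730 to 1040 CPM in the 3 groups. Of these, 7 fell and 2 rose in CEBPA-first against CSF3R-only: Ly86 rose by 2.70 ± 0.18 and Fcgr1 by 0.65 ± 0.10 on the log2 scale, and Irf8 was not called (0.04 ± 0.09). The 6 eosinophil genes summed to 226 to 337, 56.6 to 129 and 28.8 to 35.2 CPM, and 4 of the 5 tested fell. The 9 mast cell and basophil genes summed to 1680 to 2610, 1080 to 1330 and 1230 to 1660 CPM, with 4 of the 8 tested lower and 1 higher in CEBPA-first and 7 of 8 lower in CSF3R-first, each against CSF3R-only. Dendritic cell genes were at 43.1 to 51.1 CPM in sum over all samples, with 2 of 5 tested higher and 2 lower in CEBPA-first against CSF3R-only. The 7 B cell genes summed to 3.71 to 4.55, 3.4 to 4.36 and 5.91 to 6.98 CPM in the 3 groups. Of the 2 B cell genes tested, 1 was higher and 1 lower in CEBPA-first against CSF3R-only. Of 10 stem and progenitor genes, 5 rose and 4 fell in CEBPA-first against CSF3R-only, Mecom going from 0.170 to 15.4 CPM, Myb from 108 to 331 CPM and Ly6a from 402 to 63.2 CPM.

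The remaining family genes were looked at for company. Bmf, a BH3-only gene like Bcl2l11, fell from 32.0 ± 1.49 to 10.3 ± 1.87 CPM in CEBPA-first against CSF3R-only (SD, n = 4 and 4), a log2 fold change of -1.64 ± 0.17 (edgeR adjusted p = 2.3e-06), and in CSF3R-first it was at 20.5 ± 6.93 CPM (n = 3). Bad, which binds BCL2 and BCL-XL, fell less (-0.38 ± 0.09). Bik fell too (-1.06 ± 0.33) but was under 1 CPM in all groups. Bid, which links death receptors to the mitochondria, went the other way and rose by 0.55 ± 0.06 on the log2 scale, from 96.6 ± 5.57 to 142 ± 7.75 CPM. Pmaip1 (NOXA), which neutralises MCL1, rose by 0.24 ± 0.07. Of the 6 other BH3-only genes, 2 thus rose and 3 fell (all genes tested: 35.4% rose and 36.6% fell), and Hrk was listed at 0 in all samples. Of the other survival genes, Bcl2l2 did not pass the test in any comparison (log2 fold change -0.02 ± 0.14 in CEBPA-first against CSF3R-only), and Bcl2l10, Bcl2a1c and the effector Bok had too few counts to be tested.

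Of the 6 BCL2-like and BNIP genes, Bcl2l12 (0.37 ± 0.08) and Bnip3 (0.74 ± 0.25), a mitophagy receptor, rose in CEBPA-first against CSF3R-only. Among all genes tested, 35.4% rose and 36.6% fell in this comparison. Bcl2l13, Bcl2l14, Bcl2l15 and Bnip3l were not called, with log2 fold changes of 0.14, -0.14, -0.02 and -0.32.

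The counts of the lists below stand against 72% of all genes tested that were called in this comparison (36.6% lower and 35.4% higher). Downstream of the pore, 8 of 9 apoptosome and mitochondrial factor genes rose in CEBPA-first against CSF3R-only and none fell in edgeR, also at an unadjusted p below 0.05, or in DESeq2. The list's median log2 fold change was 0.57, against 0 over all genes tested. Endog, a mitochondrial nuclease, rose by 1.08 ± 0.12, Cycs, which encodes cytochrome c, by 0.98 ± 0.09 and Aifm1 by 0.66 ± 0.06 on the log2 scale. Cycs went from 50.1 ± 6.97 to 98.5 ± 6.27 CPM (SD, n = 4 and 4), with CSF3R-first at 74.2 ± 6.24 CPM (n = 3). Most of these genes also serve respiration or ion transport in living cells. Apaf1, the scaffold of the apoptosome, was level at 211 ± 13.2 and 200 ± 23.3 CPM (log2 fold change -0.08 ± 0.08). Of 6 caspase genes, Casp2 (0.42 ± 0.06) and Casp8 (0.17 ± 0.07) rose and Casp9 (-0.42 ± 0.09) fell.

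Of 9 genes of the inhibitor of apoptosis family, 7 fell and 1 rose, with a median log2 fold change of -0.81 (all genes tested: 36.6% fell and 35.4% rose). Of the 7, 4 were Naip genes. Birc3, which encodes cIAP2, fell by 1.26 ± 0.11 on the log2 scale, from 186 ± 14.6 to 77.3 ± 7.21 CPM. Naip5, a sensor of bacterial flagellin, fell from 20.8 ± 2.10 to 10.4 ± 0.811 CPM. Naip1 was at 0.632 ± 0.113 CPM in CSF3R-only and 0.0389 ± 0.02 CPM in CEBPA-first, where it had 1 to 3 counts per sample. The Naip genes are paralogs, and how far they share reads was not measured. Of the others, Xiap (-0.45 ± 0.08) and Birc2 (-0.21 ± 0.06) fell and Birc6 was not called (0.00 ± 0.09). The gene that rose was Birc5 (survivin), which acts mainly in mitosis.

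Among 9 death receptor genes, 5 fell and 3 rose (all genes tested: 36.6% fell and 35.4% rose). Fas fell most, by 3.00 ± 0.17 on the log2 scale (edgeR adjusted p = 9.84e-09): it was at 107 ± 15.8 CPM in CSF3R-only cells, 56.8 ± 18 in CSF3R-first cells and 13.4 ± 1.02 in CEBPA-first cells (SD, n = 4, 3 and 4). Tnfrsf1a, the main TNF receptor, fell by 0.84 ± 0.09. Fasl was called higher but was at only 0.0119 CPM in CSF3R-only and 0.246 CPM in CEBPA-first.

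Of p53 and 13 genes named with it, 10 fell and 4 rose in CEBPA-first against CSF3R-only, with a median of -0.60 (all genes tested: 36.6% fell and 35.4% rose, with a median of 0). Trp53inp1 fell by 2.16 ± 0.15, Perp by 1.32 ± 0.18 and Eda2r by 0.97 ± 0.25 on the log2 scale. The p53 transcript Trp53 itself rose by 0.53 ± 0.09, from 123 ± 12.0 to 177 ± 8.79 CPM. Of 7 tested genes that regulate BIM or MCL1, the ubiquitin ligase gene Huwe1 (0.49 ± 0.09) and Dynll2 (0.56 ± 0.09), which encodes the dynein light chain that binds BMF, rose, as did Usp9x and Dynll1. Foxo1 and Foxo3 were the 2 that fell.

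**Figure D5:**
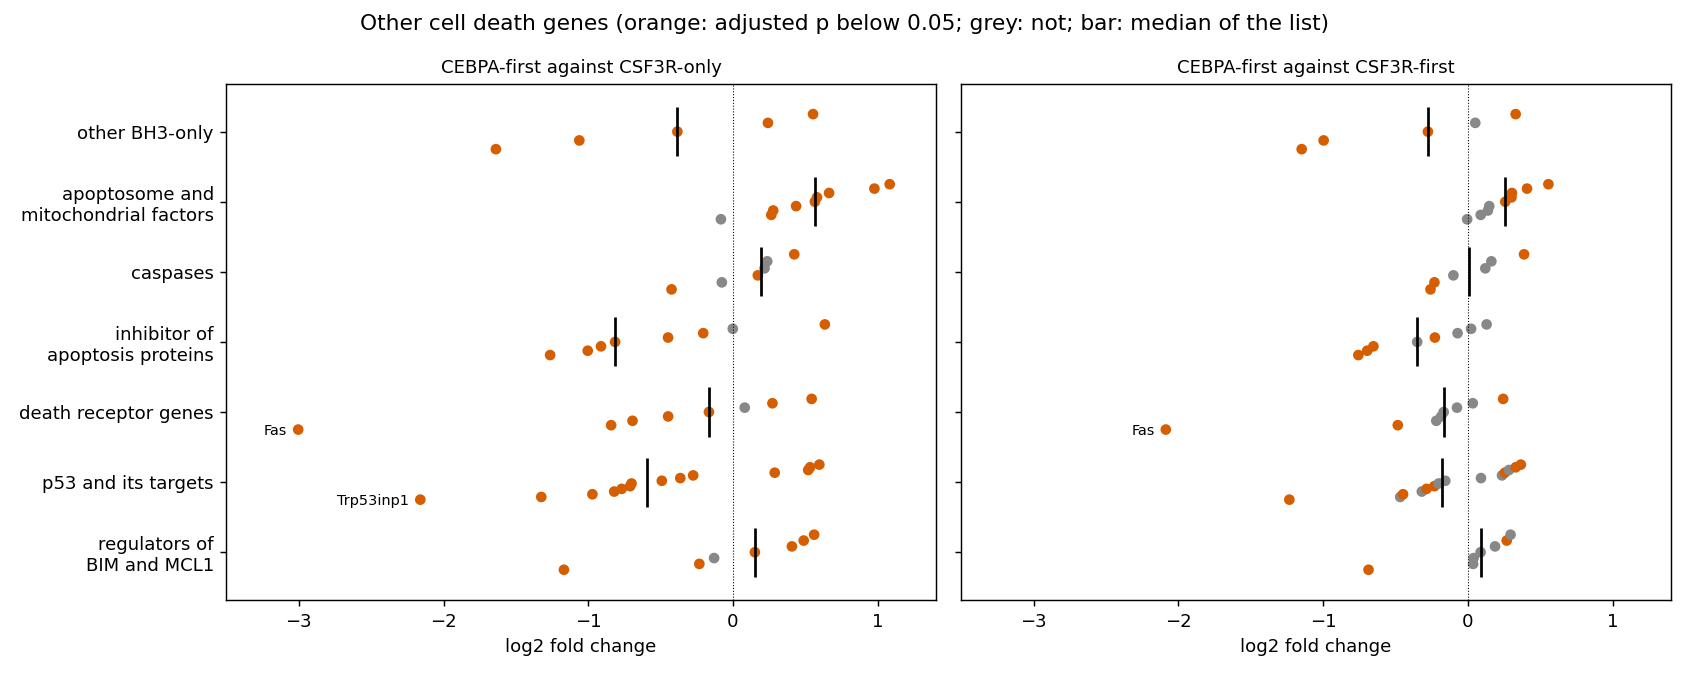
Log2 fold changes of single genes in 7 lists of cell death genes, for CEBPA-first against CSF3R-only and against CSF3R-first, with the median of each list as a bar; orange points passed an adjusted p of 0.05. Fasl and Naip1, which were near 0 in a group, count in the medians but have no point. Mitochondrial factors lie mostly right of 0, and Fas is the lowest point of both panels.

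In CEBPA-first against CSF3R-first, 5 of the 9 mitochondrial factor genes rose and none fell (also at an unadjusted p below 0.05 in edgeR, and in DESeq2), and 5 of the 9 inhibitor of apoptosis genes fell, where 48.3% of all genes tested were called (24.3% lower and 24% higher). Fas fell by 2.09 ± 0.17 on the log2 scale and Bid rose by 0.33 ± 0.06, and Bmf, at 20.5 and 10.3 CPM, was called lower (edgeR adjusted p = 0.000908).

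The genes whose pattern over the 11 samples was most like a member's were sought for the 3 genes with the widest range of group means, among 5921 genes with a mean log2 CPM of at least 5. For Bcl2l11 these were Jun (Pearson's r 0.9977), Lyn (0.9973) and Ddx58 (0.9971). For Bcl2l1 they were Marcksl1 (0.9986), Slfn4 (0.9985) and Qsox1 (0.9984), and for Mcl1 Arhgap45 (0.9986), Aatk (0.9982) and Pitpnm1 (0.9981). Such likeness was common, with 1088, 1005 and 1130 of the candidate genes above an r of 0.95, and all values share the same libraries and the same 3 groups.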

How the data were processed

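Raw gene counts of the 11 samples were analysed. The authors trimmed reads with Trimmomatic, aligned them with STAR (build mm10, per the submitters' processing notes) and deposited raw counts, whole numbers for each gene; the counting tool, annotation and strand setting are not given in the sources used here. Counts were normalized by TMM, filtered with filterByExpr and tested in a single model of all 3 groups with no covariate (R 4.3.3, edgeR 4.0.16, limma 3.58.1). The SE was taken from the fitted log2 fold change and its F statistic. Log2 CPM used a prior count of 2. Of 51912 genes, 23409 had no count, and 3 counts correspond to 0.0383 to 0.0648 CPM, for counting error only. Nothing says that samples of a group came from separate animals, so p-values measure the spread between these samples. Gene positions and sequences come from GENCODE and RefSeq files of GRCm38, read with Biopython 1.88. Figures used matplotlib. The members and lists were chosen with earlier results of these data known. All members were named, with all other family genes, up to 3 called genes with the largest change per other list, and the most abundant markers; other genes were named after their values were seen. Alternatives were DESeq2 1.42.0, other scalings and filters, only the compared groups, a replicate block, summed A1 copies and each sample left out.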

Additional observations from a re-analysis of the deposited data

Results flagged for a closer look

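In CSF3R-only, Bak1 was at 13.3 CPM in replicate A, away from the next sample at 15.4 CPM, a gap that exceeds Dixon's limit for 4 samples. In CEBPA-first, Bak1 was at 9.99 CPM in replicate B, with the next sample at 13.1 CPM. Of 32 groups of 4 samples looked at in this way, 2 held such a sample, and chance alone flags about 1 in 20. Without CSF3R-only replicate A, the log2 fold change of Bak1 in CEBPA-first against CSF3R-only was -0.34 and was called (edgeR adjusted p = 0.0329), as it was under 4 other alternatives.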

How the results depend on the processing

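Requiring a log2 fold change past 1 left 5 of the 10 genes for CEBPA-first against CSF3R-only (the first comparison), 0 against CSF3R-first (the second) and 0 for the remaining one, CSF3R-first against CSF3R-only (the third). Adding up the A1 copies left 5 calls of 8 genes in the first. Without one sample each, the calls numbered 7 to 10, 4 to 8 and 4 to 4; the highest came without CSF3R-first replicate A (10) and replicate C (8), the lowest of 4 in the second without CEBPA-first replicate B or CSF3R-first replicate A. With the replicate block there were 9, 5 and 4 calls, with Bcl2 called in the first (0.27, edgeR adjusted p = 0.0198) and Bcl2a1b no longer in the second (-0.85, 0.071); same-letter deviations correlated at -0.107 to 0.362, over 0.1 in 7 of 10 pairs, and 6 of 11 samples correlated best with their own letter. In CSF3R-first against CSF3R-only, log2 fold changes of genes that were not called turned sign: with total-count scaling Bax (0.04) and Bak1 (0.03), without a filter Bax (0.00), and with the block the summed A1 copies (-0.06). Leaving out one sample spanned 0 there for Bcl2 (-0.23 to 0.01), Bcl2a1b (-0.71 to 0.11), Bcl2a1d (-0.46 to 0.05), Bax (-0.08 to 0.00), Bak1 (-0.20 to 0.09) and the summed copies (-0.34 to 0.22), and in CEBPA-first against CSF3R-first for the summed copies (-0.45 to 0.10). With total-count scaling the position of CSF3R-first for Bax was -0.742, and the level of Bbc3 in CSF3R-only 26.8 CPM. Under that scaling the calls of the 10 genes in the first comparison split into 2 higher and 6 lower, against 1 and 7, and those of the wider lists into 30 and 23 (26 and 28 with TMM), 18 and 16 (13 and 17) and 21 and 16 (14 and 21) in the 3 comparisons. The cause was not tested. Of 540 alternative values for single genes, those above included, 502 kept direction and side of the threshold. A1 copies held 24 to 100 counts a sample, which limits their precision.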
